A study of Mus musculus with 22 samples.

Results

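The interferon regulatory factors (IRFs) are a family of transcription factors, and 8 of their genes, Irf1, Irf2, Irf3, Irf4, Irf5, Irf7, Irf8 and Irf9, were followed here in mouse spinal cord. The members were chosen by name among the 21995 genes of the deposited count table, and all 8 were found in it. RNA-seq libraries of whole spinal cord came from 22 mice, 1 library per mouse. Aging was examined in 8 young wild-type mice at 3 to 4 months and 8 old wild-type mice at 18 to 24 months, all male. The amyotrophic lateral sclerosis (ALS) model was examined at 5 to 6 months, in 3 mice with the SOD1-G93A transgene and 3 wild-type mice as controls, with both sexes in each group. The transgene is a mutant form of human SOD1 present at high copy number, and mice of all 4 groups were of the C57BL/6 strain. These mice develop motor neuron disease, and the mutant protein is made in many cell types and not only in motor neurons. The aging libraries were made with Roche KAPA HyperPrep and the ALS libraries with Illumina TruSeq, so each comparison was made within 1 experiment.

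IRF proteins bind DNA at repeats of the letters GAAA and turn the sensing of nucleic acids, microbial products and cytokines into changes in transcription. IRF3 and IRF7 are phosphorylated after nucleic acid sensing and switch on type I interferon genes, and IRF9 joins STAT proteins in the complex that carries the signal of the type I interferon receptor. IRF8 acts together with PU.1 in cells of the myeloid lineage, including microglia, the resident macrophages of the spinal cord. IRF5 acts downstream of Toll-like receptors, IRF1 is a mediator of interferon-gamma responses, IRF2 competes with IRF1 for the same DNA sites, and IRF4 works mainly in lymphocytes.

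The libraries held between 5078092 and 9358055 counts in young mice, 5664869 and 9145600 in old mice, 10693060 and 13219797 in control mice, and 9675610 and 11872431 in SOD1-G93A mice. Levels of a single gene are given as CPM, counts scaled to library size by TMM within an experiment, and 3 counts, taken as the floor, corresponded to 0.227 to 0.591 CPM. This floor covers counting error only. Markers of neurons, motor neurons, astrocytes and oligodendrocytes were present in every group. Libraries are numbered within a group in column order, since the columns carry no replicate numbers. Nothing in the labels ties the mice of a group to litters or cages. One old library, number 6, stood apart, with a summed level of 20 microglia markers of 1015 CPM where the highest old library had 1755 CPM and the median was 1588 CPM.

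Promoter sequences show what the regulated members have in front of their start sites. The windows below are from RefSeq on GRCm38.p6, all on the plus strand, and RefSeq held a promoter for each of the 8 members. They were searched on both strands for 5 motifs, in which N is any base. These were an interferon-stimulated response element (GAAA, NN, GAAA), an Ets-IRF composite element (GGAA, NN, GAAA), a STAT site (TTC, NNN, GAA), an NF-kB site (GGG, NN, TTTCC) and a PU.1 site (AGGAAGT). Capitals mark matches. Irf8 and Irf1 are shown because they rose in both comparisons and hold STAT letters, and Irf2 because it holds the most matches and passed neither test. The Irf8 window is chr8:120736158-120736257, from 200 to 101 bases before the start site, and the Irf1 window is chr11:53769894-53769953, from 120 to 61 bases before it. The Irf2 window is chr8:46739495-46739554, from 250 to 191 bases before the start site.
Irf8: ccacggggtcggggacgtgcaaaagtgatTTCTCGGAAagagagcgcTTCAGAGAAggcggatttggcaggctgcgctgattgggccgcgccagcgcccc
Irf1: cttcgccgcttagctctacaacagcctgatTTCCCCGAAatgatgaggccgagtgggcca
Irf2: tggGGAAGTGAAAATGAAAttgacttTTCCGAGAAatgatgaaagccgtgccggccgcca

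The Irf8 window held 2 STAT sites, which start 171 and 153 bases before the start site, and the Irf1 window held 1 STAT site, 90 bases before it. The Irf2 window held an Ets-IRF composite element and an interferon-stimulated response element that share 4 bases, so the capitals run on from one into the other, and then a STAT site that overlaps neither. Outside the printed windows, Irf2 held an NF-kB site 17 bases before the start site, and a second Irf1 start held a PU.1 site 130 bases before it. Within 300 bases around each start, the STAT letters were present in 8.3% of all 32851 promoters, the PU.1 letters in 9.35%, the interferon-stimulated response element in 3.44%, the Ets-IRF composite element in 2.72% and the NF-kB letters in 1.63%. The windows of Irf3, Irf4, Irf5, Irf7 and Irf9 held none of these 5 motifs. Both windows of Irf9 lie inside that gene as annotated, so the bases before its annotated start, chr14:55603571, were not searched. In the windows searched, none of the 5 motifs was found in all of the members that rose.

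In old spinal cord, 5 of the 7 IRF genes that could be tested rose, Irf8, Irf5, Irf1, Irf9 and Irf7, and none fell. Over all 13647 genes tested, 13.5% were higher and 12.9% were lower at the same threshold, an adjusted p under 0.05 in edgeR's quasi-likelihood test. Irf8 and Irf5 also passed the threshold of the study, which adds a log2 fold change beyond 1 and which 2.18% of all genes passed upwards and 0.044% downwards. The median log2 fold change of the 7 members was 0.71, and that of all genes tested was -0.0027. Irf4 was too low to be tested. Without old library 6, the number of members that rose was again 5.

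Irf8, the myeloid partner of PU.1, changed most of the members in old mice. Its level ran from 3.07 CPM in the lowest young mouse through a median of 5.19 CPM to 6.22 CPM in the highest. In old mice the lowest value was 8.48 CPM, in library 6, the median was 18.7 CPM and the highest was 23.7 CPM. Every old mouse lay above every young mouse, and the old mice spread more widely than the young ones. The mean rose from 5.01 ± 0.986 CPM (SD, n = 8) to 18.0 ± 5.07 CPM (SD, n = 8). This is a log2 fold change of 1.86 (SE 0.17), or 3.62-fold, with an edgeR adjusted p of 2.71e-08.

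Irf5, which relays Toll-like receptor signals, was between 2.85 and 5.58 CPM in young mice with a median of 3.51 CPM. The old mice ranged from 7.13 to 11.7 CPM around a median of 9.26 CPM. The groups did not overlap, and old library 6, the lowest for Irf8, was the highest of the old mice for Irf5. Irf5 thus rose 2.33-fold, by 1.22 on the log2 scale (SE 0.15), with an edgeR adjusted p of 2.33e-06.

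Irf1, a mediator of interferon-gamma responses, ran from 3.82 CPM through a median of 4.86 CPM to 5.63 CPM in young mice. In old mice it ran from 6.02 CPM through 7.93 CPM to 9.81 CPM. Again no old mouse was as low as a young mouse. Irf1 rose 1.63-fold, by 0.71 on the log2 scale (SE 0.12), with an edgeR adjusted p of 9.96e-05. In CPM, Irf1, Irf5 and Irf8 were thus the 3 members whose groups did not overlap. Over all genes tested, 3.66% showed such a separation upwards and 1.66% downwards. On the deposited FPKM values, which are scaled by transcript length, the groups of each of these 3 members overlapped. For Irf8 the lowest old mouse had 2.81 FPKM and the highest young mouse 3.63 FPKM. These values were 4.11 and 5.61 FPKM for Irf5, and 3.82 and 4.75 FPKM for Irf1.

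Irf7 and Irf9, the members closest to type I interferon signaling, also rose. Irf7, which is itself induced by interferon, ranged from 1.76 to 2.85 CPM among young mice (median 2.29 CPM) and from 1.85 to 5.52 CPM among old mice (median 4.33 CPM). Of the 8 old mice 7 lay above every young mouse, and library 6 lay within the young range. Irf7 rose by 0.87 on the log2 scale (SE 0.19), with an edgeR adjusted p of 0.00168. Irf9, the DNA-binding part of the complex with STAT proteins, ranged from 7.76 to 14.6 CPM among young mice (median 12.8 CPM) and from 14.3 to 19.4 CPM among old mice (median 18.3 CPM). Here too 7 of 8 old mice lay above every young mouse, and library 6 was the lowest of the old mice. Irf9 rose by 0.52 on the log2 scale (SE 0.09), with an edgeR adjusted p of 0.00025.

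Irf2 and Irf3 did not pass the test in old mice. Irf2, the competitor of IRF1, ranged from 18.4 to 30.5 CPM (median 24.8 CPM) among young mice and from 19.8 to 29.9 CPM (median 21.1 CPM) among old mice, and the ranges overlapped almost entirely. Its log2 difference was -0.05 (SE 0.10), with an edgeR adjusted p of 0.763. Irf3, the factor that waits in the cytoplasm for nucleic acid sensing, ranged from 17.9 to 23.3 CPM (median 20.9 CPM) among young mice and from 15.0 to 21.5 CPM (median 17.0 CPM) among old mice, and 5 of 8 old mice lay below every young mouse. Its log2 difference was -0.21 (SE 0.08), with an edgeR adjusted p of 0.061. Leaving out any 1 of 4 mice, young library 1 or 2 or old library 2 or 3, brought Irf3 past the threshold in the direction of lower levels with age, at an adjusted p between 0.0223 and 0.0445.

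**Figure D1:**
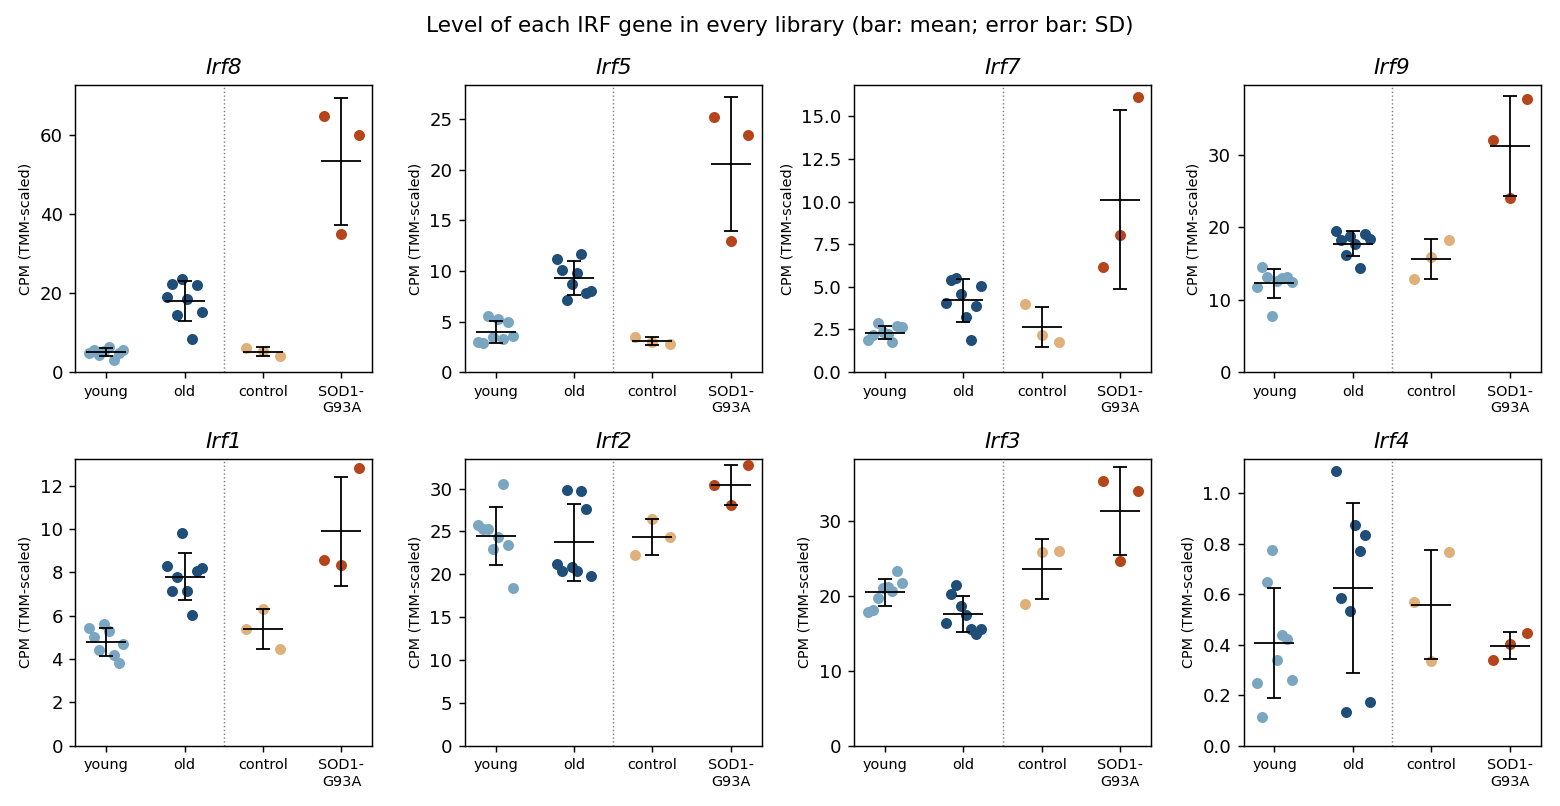
Level of the 8 IRF genes in each of the 22 libraries, as TMM-scaled CPM on a linear axis that starts at 0, by group, with the aging experiment to the left and the ALS experiment to the right of the dotted line. Points are mice, the horizontal bar is the group mean and the error bar the SD; the 3 SOD1-G93A mice lie above all control mice for 6 genes, whereas Irf3 and Irf4 overlap.

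In SOD1-G93A spinal cord the same 5 of 7 tested IRF genes rose against control mice, Irf8, Irf5, Irf7, Irf9 and Irf1, and none fell. Over all 14386 genes tested, 18.4% were higher and 15.5% were lower. Irf8, Irf5 and Irf7 also passed the threshold with a log2 fold change beyond 1, which 8.5% of all genes passed upwards and 1.2% downwards. The median log2 fold change was 1.0 for the members and 0.0031 for all genes. In CPM, all 3 SOD1-G93A mice lay above all 3 control mice in 6 of the 7 members. They did so for 25.7% of all genes tested, and 24.7% of genes were separated downwards. On the deposited FPKM values the groups of Irf1 and Irf2 overlapped too, besides those of Irf3. For Irf1, SOD1-G93A library 2 lay below control library 2, and for Irf2, SOD1-G93A library 1 lay below control library 3. The groups of Irf5, Irf7, Irf8 and Irf9 stayed apart on both measures.

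Irf8 was 6.17, 5.30 and 4.00 CPM in the 3 control mice and 64.9, 35.0 and 60.2 CPM in the 3 SOD1-G93A mice. The lowest SOD1-G93A mouse, library 2, was still far above the highest control mouse. The log2 fold change was 3.38 (SE 0.26), or 10.4-fold, with an edgeR adjusted p of 0.000124. Irf5 was 3.51, 2.95 and 2.77 CPM in control mice and 25.3, 13 and 23.5 CPM in SOD1-G93A mice. Library 2 was again the lowest, and the groups were well apart. The log2 fold change of Irf5 was 2.75 (SE 0.27), or 6.72-fold, with an edgeR adjusted p of 0.000281.

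Irf7 was 3.99, 2.19 and 1.77 CPM in control mice and 6.19, 8.06 and 16.1 CPM in SOD1-G93A mice. Both groups were spread widely, and library 3 was the highest SOD1-G93A mouse. The log2 fold change was 1.95 (SE 0.42), or 3.87-fold, with an edgeR adjusted p of 0.00898. Irf9 was 12.8, 15.9 and 18.3 CPM in control mice and 32.0, 24.1 and 37.8 CPM in SOD1-G93A mice, without overlap. On the log2 scale Irf9 rose by 1.0 (SE 0.19), or 1.99-fold, with an edgeR adjusted p of 0.00528.

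Irf1 was 5.41, 6.31 and 4.46 CPM in control mice and 8.56, 8.36 and 12.8 CPM in SOD1-G93A mice. The SOD1-G93A mice lay above the control mice in CPM, with library 3 the highest by a clear distance. This was a rise of 0.88 on the log2 scale (SE 0.23), or 1.84-fold, with an edgeR adjusted p of 0.0184. This call depended on single mice, and the adjusted p was 0.0558 without control library 1, 0.0693 without control library 3 and 0.0787 without SOD1-G93A library 3.

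Irf2 and Irf3 again did not pass. Irf2 was 22.3, 26.4 and 24.4 CPM in control mice and 30.4, 28.1 and 32.8 CPM in SOD1-G93A mice, with a log2 difference of 0.32 (SE 0.11) and an edgeR adjusted p of 0.0503. Irf3 was 19.0, 25.9 and 26 CPM in control mice and 35.4, 24.7 and 34.1 CPM in SOD1-G93A mice, with a log2 difference of 0.41 (SE 0.17) and an edgeR adjusted p of 0.0958. For Irf3 the groups overlapped through library 2. Without SOD1-G93A library 2, all 7 tested members passed as higher, with an adjusted p of 0.0215 for Irf2 and 0.00967 for Irf3. That fit also called more of all genes, 3476 higher and 3172 lower of 14584. The fit with that library called 2641 higher and 2236 lower of 14386.

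Irf4, the lymphocyte member, was near the floor everywhere. It had 1 to 5 counts in young mice, 1 to 8 in old mice, 4 to 10 in control mice and 4 to 5 in SOD1-G93A mice, and a difference could not be detected at this depth.

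**Figure D2:**
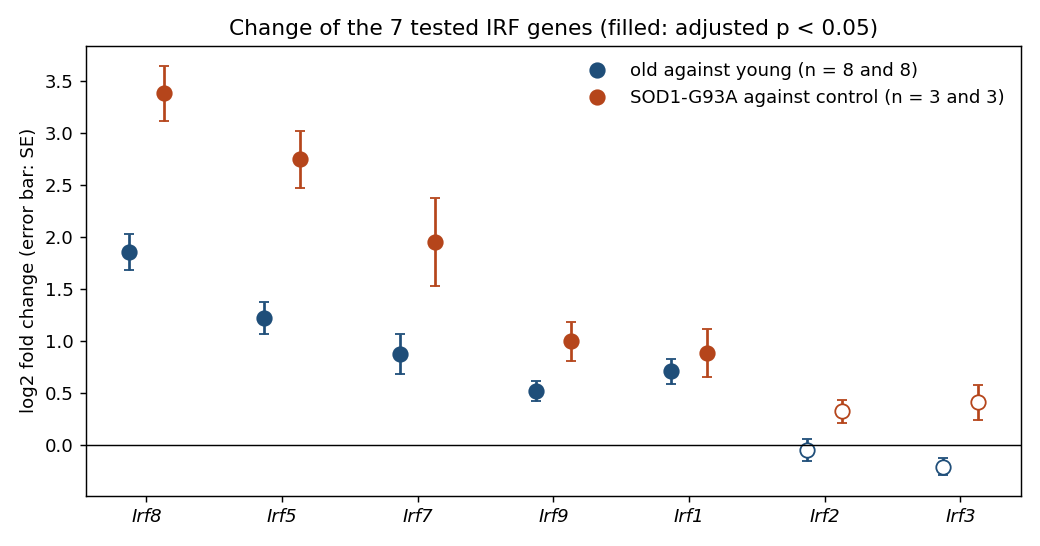
Log2 fold change of the 7 tested IRF genes in old against young mice (blue, n = 8 and 8) and in SOD1-G93A against control mice (red, n = 3 and 3), with error bars of 1 SE; filled points have an adjusted p under 0.05. Irf8 has the largest change in both comparisons, 1.86 and 3.38, and Irf2 and Irf3 are unfilled in both.

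The size of the changes was then compared between aging and the ALS model, as the difference between the log2 fold changes in one fit of all 22 libraries. The change was more positive in SOD1-G93A mice for 3 of the 7 members, Irf5, Irf8 and Irf3, and more negative for none. Over all 14502 genes tested, 11.6% differed in the positive and 14.2% in the negative direction. The difference was 1.5 (SE 0.30) for Irf5 and 1.5 (SE 0.33) for Irf8, with edgeR adjusted p of 0.000689 and 0.00161. For Irf3, whose values moved in opposite directions in the comparisons without passing either test, the difference was 0.59 (SE 0.17), with an edgeR adjusted p of 0.0113. The difference was 1.05 (SE 0.41) for Irf7 and 0.45 (SE 0.19) for Irf9, with adjusted p of 0.0605 and 0.0878. It was 0.34 (SE 0.18) for Irf2 and 0.15 (SE 0.23) for Irf1, with adjusted p of 0.173 and 0.685, so the change of Irf1 could not be told apart between the experiments. Library kit, age and sex differ between the experiments, and their part in these differences cannot be told apart from the disease. Without SOD1-G93A library 2, 5 members differed, with Irf7 and Irf9 added at adjusted p of 0.0362 and 0.014. More of all genes differed in that fit too, 2211 in the positive and 2727 in the negative direction of 14636. With that library these were 1682 and 2063 of 14502. The difference of Irf3 was lost without control library 1 (adjusted p = 0.0558) or SOD1-G93A library 1 (adjusted p = 0.0567), and that of Irf5 was lost with limma on log2(FPKM + 1) (adjusted p = 0.058).

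To order the members by abundance, levels must be scaled by transcript length, which the deposited FPKM values are. Irf3 was the most abundant IRF in all 4 groups, with a mean of 20.4 ± 3.38 FPKM in young mice (SD, n = 8), 16.9 ± 3.85 FPKM in old mice (SD, n = 8), 22.6 ± 4.35 FPKM in control mice (SD, n = 3) and 31.1 ± 6.01 FPKM in SOD1-G93A mice (SD, n = 3). Irf2 came next in young mice at 13.8 FPKM, in old mice at 11.6 FPKM and in control mice at 11.1 FPKM. The ranges of Irf3 and Irf2 overlapped in young and in old mice and not in control mice. Irf9 was the third in these groups, at 4.62, 6.62 and 6.32 FPKM, and its range lay below that of Irf2 in each of them.

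The middle of the order moved with age and disease. In young mice the mean level was 3.18 FPKM for Irf1, 2.83 FPKM for Irf5, 2.43 FPKM for Irf8 and 1.88 FPKM for Irf7, and each range overlapped with the next. In old mice Irf8 at 6.56 FPKM and Irf5 at 6.09 FPKM stood before Irf1 at 4.59 FPKM and Irf7 at 3.14 FPKM, and among neighbours in this stretch only Irf1 and Irf7 had ranges apart from each other. In control mice Irf1 at 3.33 FPKM lay above Irf8 at 2.26 FPKM and Irf7 at 2.23 FPKM, and Irf5 followed at 1.35 FPKM. The range of Irf7 overlapped with those of Irf8 and Irf5, while the range of Irf8 lay above that of Irf5. In SOD1-G93A mice Irf8 was the second most abundant IRF at 19.3 ± 6.15 FPKM (SD, n = 3), before Irf2 at 15.2 FPKM and Irf9 at 13 FPKM. Those 3 ranges overlapped in order, while Irf3 lay above all of them. Irf5 followed at 9.42 FPKM, Irf7 at 7.30 FPKM and Irf1 at 5.0 FPKM, each overlapping with the next. Irf4 was the last in every group, with means of at most 0.125 FPKM.

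**Figure D3:**
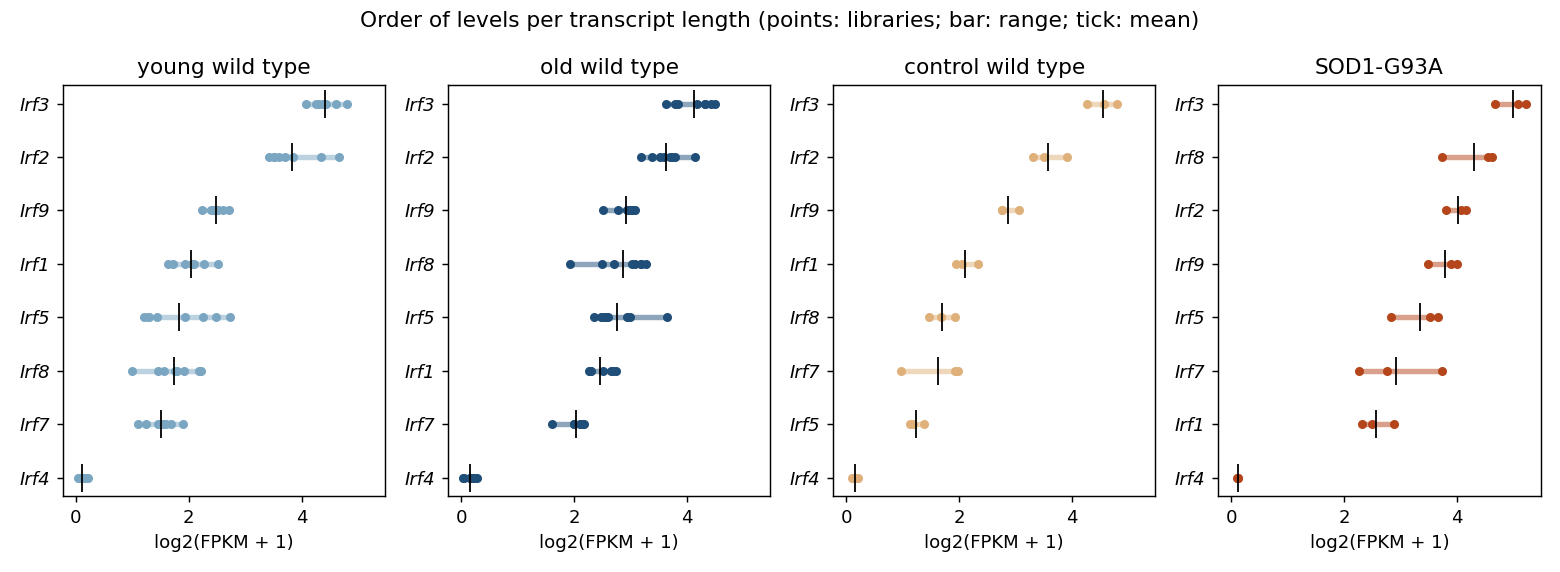
Levels of the 8 IRF genes as log2(FPKM + 1), 1 panel per group, ordered by mean FPKM from top to bottom. Points are libraries, the coloured bar is their range and the black tick the mean; Irf3 is at the top of every panel, and Irf8 is the sixth of 8 in young mice, the fourth in old mice and the second in SOD1-G93A mice.

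When the order was made from CPM per kilobase of annotated exon instead, 21 of the 32 places in the 4 groups were kept. Irf3 remained the first in every group, Irf8 remained the second in SOD1-G93A mice, and Irf4 remained the last in every group. Several other places changed with the measure of length. By CPM per kilobase Irf9 came before Irf2 in old mice, at 3.30 against 3.21, and Irf2 was the fifth and Irf5 the third in SOD1-G93A mice. Irf5 stood before Irf1 in young mice and before Irf8 in old and in control mice.

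Several members share bases with another gene, and the sources used here do not say if reads were counted by strand. On GRCm38, Irf8 (chr8:120736358-120756694) lies entirely within Gm20388, a gene model on the same strand, which had 273 to 517 counts in old mice and 84 to 548 in SOD1-G93A mice, so reads of Irf8 may be divided between them. Irf5 (chr6:29526625-29541871) shares 1045 bases with Tnpo3 on the opposite strand, and Irf3 (chr7:44997648-45002848) shares 1065 bases with Bcl2l12 on the opposite strand. Irf9 (chr14:55603571-55610030) shares 123 bases with Rnf31 on the same strand. Irf1 (chr11:53770014-53778374) shares 907 bases with Gm17334, which had at most 6 counts in a library, and Irf7 (chr7:141262706-141266481, minus strand) shares 45 bases with Phrf1. Irf2 (chr8:46739732-46847458) overlaps 3 noncoding models on the opposite strand. Irf4 lies at chr13:30749226-30766976, and no gene in that annotation overlaps it.

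Some of the genes that act before the IRFs were higher in both comparisons. Of 23 sensors, adaptors and kinases tested, 10 were higher and 3 lower in old mice, with a median log2 fold change of 0.24, and of 26 tested in the ALS comparison 19 were higher and 1 lower, with a median of 0.95. Over all genes tested, 13.5% were higher and 12.9% lower with age, and 18.4% and 15.5% in the ALS comparison, and the lists that follow are read against the same shares. Tlr7, the endosomal receptor for single-stranded RNA that signals to IRF5 and IRF7, rose from a mean of 2.44 to 7.67 CPM in old mice and from 2.84 to 27.6 CPM in SOD1-G93A mice, log2 fold changes of 1.65 (SE 0.16) and 3.28 (SE 0.27). Unc93b1, which carries endosomal Toll-like receptors to their compartment, rose by a log2 fold change of 1.12 (SE 0.12) and 2.30 (SE 0.19). The edgeR adjusted p was 6.72e-08 and 0.000152 for Tlr7, and 2.34e-07 and 0.00016 for Unc93b1.

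The interferons themselves were almost without counts. None of the 20 interferon genes in the table could be tested, and together they had 7 counts among 189992103 in the 22 libraries. There were 15 interferon genes at 0 in every library, and no library had more than 1 count for any of them. Ifnb1, the interferon that IRF3 switches on, had 1 count in all, and Ifng had 2. At this depth a difference in ligand expression was not detectable.

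The receptors and their JAK-STAT chain came between. Of 11 tested genes 4 were higher and 1 lower in old mice, with a median log2 fold change of 0.15. The ALS comparison had 7 of the 11 higher and 1 lower, with a median of 0.43. Ifngr1, a chain of the interferon-gamma receptor, rose by a log2 fold change of 0.44 (SE 0.09) with age and by 1.51 (SE 0.21) with the transgene, with edgeR adjusted p of 0.000671 and 0.00137. Ifnar2, a chain of the type I interferon receptor, rose by 0.39 (SE 0.08) and 1.04 (SE 0.15), with edgeR adjusted p of 0.000448 and 0.00143. Of the feedback inhibitors, 3 of 5 rose in old mice and 4 of 6 in SOD1-G93A mice, and none fell. Socs3, which blocks cytokine receptor signaling, rose from a mean of 2.0 to 6.17 CPM in old mice and from 1.19 to 26 CPM in SOD1-G93A mice, with edgeR adjusted p of 8.21e-05 and 0.000274.

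Of the DNA-binding partners of IRFs, 4 of 7 rose in old mice and 8 of 8 in SOD1-G93A mice, and none fell. Spi1, which encodes PU.1, rose by a log2 fold change of 1.29 (SE 0.16) in old mice and 2.71 (SE 0.26) in SOD1-G93A mice, with edgeR adjusted p of 2.72e-06 and 0.000241. Ikzf1, a lymphoid and myeloid factor that binds with IRF4 and IRF8, rose by 1.21 (SE 0.12) and 2.22 (SE 0.25), with edgeR adjusted p of 7.20e-08 and 0.000534. The IRF2-binding co-regulators did not pass in old mice, 0 of 3, where 13.5% of all genes were higher. In SOD1-G93A mice 1 of 3 was higher, Irf2bp2, from a mean of 54.8 to 77.0 CPM with an edgeR adjusted p of 0.0263. Its change was more positive in SOD1-G93A than in old mice by 0.52 (SE 0.14), with an edgeR adjusted p of 0.007.

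Many of the genes that IRFs act on were higher in both comparisons. Of 29 type I interferon effectors tested, 22 were higher and none lower in old mice, and of 34 in the ALS comparison 31 were higher and 1 lower. Their median log2 fold changes were 0.67 and 1.55. Lgals3bp, a secreted glycoprotein induced by interferon, rose from a mean of 24.4 to 77.3 CPM in old mice and from 21.5 to 163 CPM in SOD1-G93A mice, with edgeR adjusted p of 4.81e-13 and 0.000228. Of 25 interferon-gamma and IRF1 targets, 24 were higher with age and 23 in the ALS comparison, with medians of 0.82 and 1.34 and none lower. B2m, the light chain of MHC class I, rose from 86.6 to 248 CPM and from 105 to 454 CPM, and Psmb8, an immunoproteasome subunit, rose from 2.98 to 7.76 CPM and from 2.71 to 16 CPM. The edgeR adjusted p was 1.55e-10 and 0.000182 for B2m, and 3.52e-06 and 0.000124 for Psmb8.

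**Figure D4:**
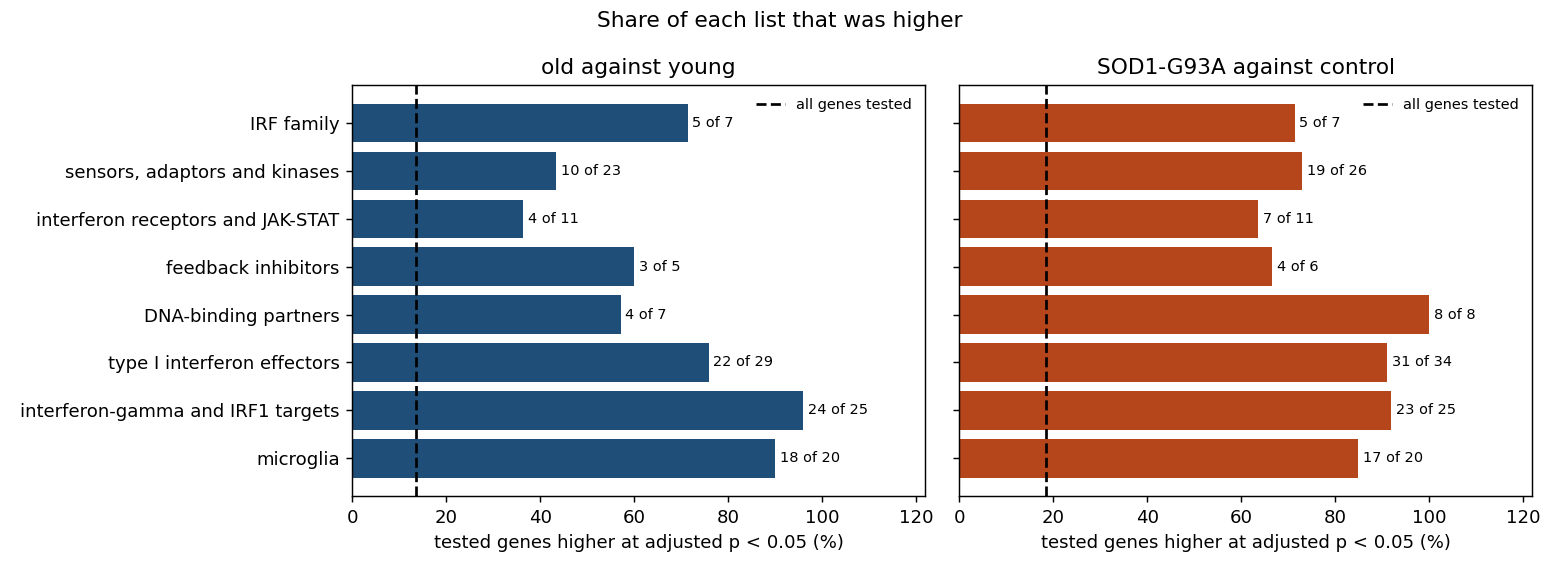
Percent of the tested genes of each list that were higher at an adjusted p under 0.05, in old against young mice (left) and in SOD1-G93A against control mice (right), with the counts beside the bars; the dashed line is the share of all genes tested, 13.5% and 18.4%. The 8 lists shown lie above the line in both panels; not shown are the interferon ligands, none of which could be tested, the IRF2-binding co-regulators (0 of 3 in old mice and 1 of 3 in SOD1-G93A mice) and the markers of other cell types.

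Microglia markers were higher along with these genes. Of 20 microglia markers 18 were higher with age and 17 in the ALS comparison, none was lower, and none was at 0 in every library of any group. Their summed level was 573 to 633 CPM in young mice and 1015 to 1755 CPM in old mice, and 591 to 711 CPM in control mice and 2651 to 5247 CPM in SOD1-G93A mice. SOD1-G93A library 2, the lowest for Irf8, Irf5, Irf9 and Irf1, was the lowest for the microglia markers. It was not the lowest for Irf7, at 8.06 CPM against 6.19 CPM in library 1. Old library 6, the lowest for Irf8, Irf7, Irf9 and Irf1, was the lowest of the old mice for these markers. For Irf5 it was the highest of the old mice, at 11.7 CPM. In bulk tissue, a change in the number of cells of a type and a change in the RNA per cell cannot be told apart.

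The summed CPM of other immune cell markers was lower than that of the microglia markers in every library. The 8 markers of T and NK cells did not pass edgeR's filter on low counts. DESeq2, which was run without it, called 2 of them higher in old mice, Cd8a and Nkg7, named after their values were seen, and 0 in SOD1-G93A mice. Among all genes given an adjusted p, DESeq2 called 1968 of 16128 higher in old mice and 2560 of 16065 in SOD1-G93A mice. The summed level of the 8 markers was 0.329 to 0.707 CPM in young mice and 0.875 to 3.17 CPM in old mice. It was 0.154 to 1.01 CPM in control mice and 1.51 to 2.33 CPM in SOD1-G93A mice. The lowest young and control sums lay within or below the floor of a single gene, 0.227 to 0.591 CPM. These sums did not overlap in either experiment, where 3.66% and 25.7% of all single genes tested were separated upwards. Ncr1 was at 0 in every old library, and Cd3d, Cd3g, Ncr1 and Klrb1c were at 0 in every control library. The 8 markers of B and plasma cells summed to 2.72 to 5.76 CPM in young mice, 3.13 to 6.18 CPM in old mice, 3.53 to 6.31 CPM in control mice and 6.52 to 8.50 CPM in SOD1-G93A mice. In the ALS comparison 1 of the 3 of them tested was higher, Sdc1, which epithelial cells also use. Neutrophil markers summed to at most 2.58 CPM in any library, and Ly6g was at 0 in all groups. The 6 dendritic cell markers summed to 41.8 to 47.2 CPM in young mice, 33.3 to 45.2 CPM in old mice, 38.1 to 45.9 CPM in control mice and 22.6 to 35.7 CPM in SOD1-G93A mice, most of it from Flt3. Of the 2 of them tested, Flt3 was lower in both comparisons and Zbtb46 passed neither test. Markers of the nervous tissue moved in the ALS comparison too. The 5 astrocyte markers summed to 5086 to 5655 CPM in control mice and 10647 to 17042 CPM in SOD1-G93A mice, with 4 of 5 higher. The 6 neuron markers summed to 3983 to 4064 CPM in control mice and 1875 to 3161 CPM in SOD1-G93A mice, with 4 of 6 lower, and the 5 motor neuron markers to 181 to 208 CPM and 91.4 to 105 CPM, with 3 of 5 lower. With age, 2 of 5 astrocyte markers were higher and 1 lower, 1 of 6 neuron markers was higher and 2 lower, and 0 of 5 motor neuron markers passed the test. The part of these cell types in the IRF changes was not tested.

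Set against the microglia markers, the 5 members that rose kept different distances. The mean log2 CPM of Irf8 lay 1.85 ± 0.26 below the mean of the 20 markers in young mice and 1.33 ± 0.27 below it in old mice (SD, n = 8), and 2.01 ± 0.18 below it in control mice and 1.04 ± 0.13 below it in SOD1-G93A mice (SD, n = 3). So the log2 level of Irf8 moved up by more than the marker mean, though not by more than every marker. The log2 fold changes of Irf8 were 1.86 with age and 3.38 in the ALS comparison. Of the markers with the smallest adjusted p, Trem2 changed by more in both, 2.37 and 3.77. Ctss changed by less in both, 1.70 and 2.84. C1qb was close to Irf8, at 1.85 and 3.40, and Fcrls changed by 1.52 and 4.08. For Irf5 the distance was 2.18 ± 0.36 in young and 2.22 ± 0.38 in old mice, which is within the spread between mice, and 2.71 ± 0.03 in control and 2.41 ± 0.17 in SOD1-G93A mice. Irf9 and Irf1 moved by less than the markers. Irf9 went from 0.59 ± 0.26 below the marker mean in young mice to 1.29 ± 0.10 below it in old mice, and Irf1 from 1.89 ± 0.17 to 2.45 ± 0.15 below it. In the ALS experiment Irf1 went from 1.94 ± 0.23 below the marker mean in control mice to 3.43 ± 0.43 below it in SOD1-G93A mice. Irf7 was 2.87 ± 0.23 below the marker mean in young and 3.36 ± 0.37 below it in old mice, while it was 1.13 ± 0.20 below the mean of the 29 type I interferon effectors in young and 1.03 ± 0.34 below it in old mice. In the ALS experiment Irf7 was 1.31 ± 0.51 below the effector mean in control and 0.82 ± 0.41 below it in SOD1-G93A mice. Irf1 was also near its young distance from the effectors in old mice, 0.15 ± 0.21 and 0.12 ± 0.21 below their mean. In the ALS experiment Irf1 moved by less than the effectors, from 0.26 ± 0.11 below their mean in control mice to 0.76 ± 0.04 below it in SOD1-G93A mice. Irf9 was above the effector mean in young and in old mice.

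Within a group of 8 mice, 8 relations between a member and a list were computed on log2 CPM with exact two-sided permutation tests. In old mice Irf8 followed the mean of the microglia markers, with a Pearson's r of 0.97 (exact permutation p = 0.000868, adjusted 0.00694) and a Spearman's rho of 0.88 (exact permutation p = 0.00724, adjusted 0.0579). Without the 2 mice farthest from the median of the marker level, r was 0.87 (n = 6). In young mice r was 0.64 and rho 0.76 (exact permutation p = 0.0732 and 0.0368, adjusted 0.195 and 0.147), and r was 0.43 without the 2 farthest mice. Irf5 showed no such relation that could be detected, with r of -0.36 and rho of -0.17 in old mice (exact permutation p = 0.428 and 0.703, adjusted 0.571 and 0.703). In young mice r was 0.04 and rho 0.17 for Irf5 (exact permutation p = 0.921 and 0.703, adjusted 0.993 and 0.703). Without the 2 farthest mice r was 0.18 in old and -0.43 in young mice.

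Irf7 was compared in the same way with the type I interferon effectors. In old mice r was 0.80 and rho 0.57 (exact permutation p = 0.0399 and 0.151, adjusted 0.16 and 0.403), and r was 0.56 without the 2 farthest mice, so the relation did not pass the adjustment. In young mice r was 0.49 and rho 0.24 (exact permutation p = 0.215 and 0.582, adjusted 0.345 and 0.703), and 0.46 without the 2 farthest. For Irf9 in old mice r was 0.64 and rho 0.17 (exact permutation p = 0.1 and 0.703, adjusted 0.2 and 0.703), and r was -0.38 without the 2 farthest, so that the sign rested on those mice. In young mice r for Irf9 was -0.0028 and rho 0.38 (exact permutation p = 0.993 and 0.36, adjusted 0.993 and 0.703), and r was -0.51 without the 2 farthest. Each list level shares its libraries and their depth with the member.

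**Figure D5:**
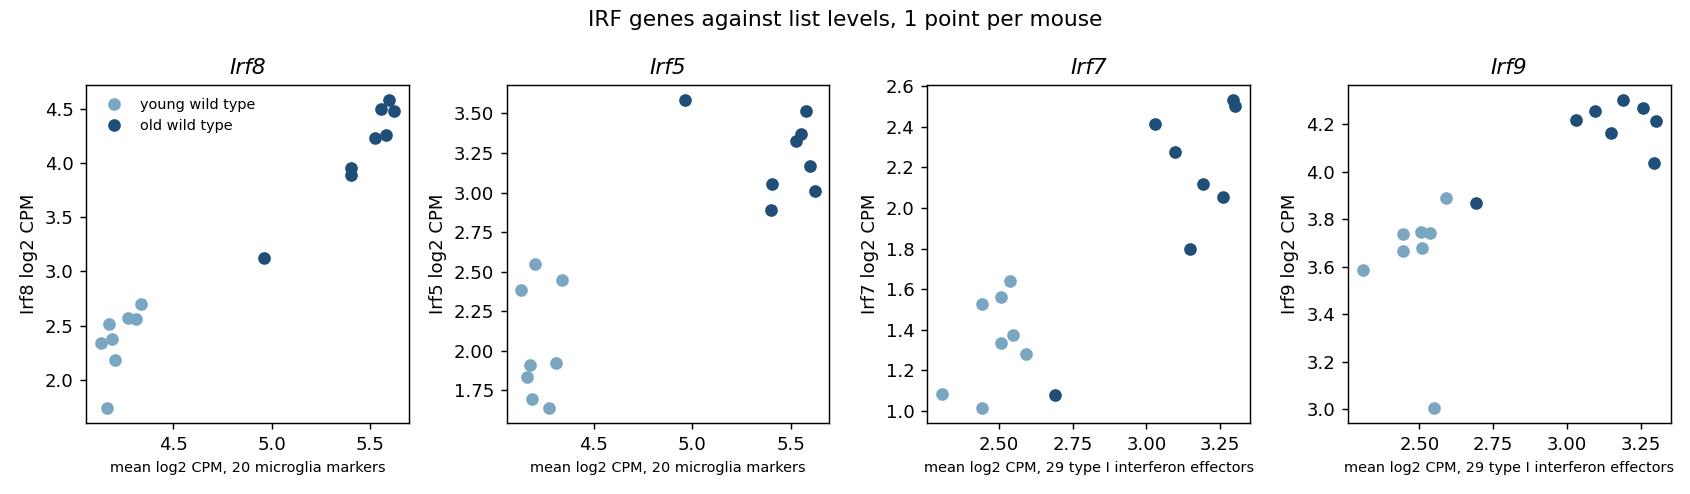
Log2 CPM of Irf8 and Irf5 against the mean log2 CPM of 20 microglia markers, and of Irf7 and Irf9 against the mean of 29 type I interferon effectors, in young (light) and old (dark) wild-type mice, 1 point per mouse. The old mouse at the low end of each x axis among the dark points is library 6, and Irf8 rises with the markers among the old mice (r = 0.97).

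As a description, the genes whose log2 CPM followed a member most closely were ranked by the correlation of deviations from the group mean over the 22 libraries, among 13610 genes. For Irf8 they were Itgb2, a leukocyte integrin chain, with an r of 0.90, Pck2 with 0.90 and Cdk5rap3 with 0.88. For Irf7 they were Napa with 0.79, Tst with 0.77 and Isg15, a ubiquitin-like protein induced by interferon, with 0.77. Irf5 was most like Pole3, Irf2bp2 and Cracr2b, with r of 0.76 to 0.74, and Irf1 was most like Pex16, Ccdc61 and Thumpd2, with r of 0.76 to 0.70. Irf9 was most like Zfp524, Rpl32 and Rps15, with r of 0.77 to 0.75. Irf2 was most like Arpp19, Mapk1ip1 and Nnat, with r of 0.86 to 0.83, and Irf3 was most like Adipor2, Paqr5 and Fam83d, with r of 0.83 to 0.82. Among the members, the pair most alike was Irf1 and Irf8 with an r of 0.60, followed by Irf7 with Irf8 and Irf1 with Irf7, both with 0.50. Within young and within old mice, r was 0.60 and 0.70 for Irf1 with Irf8 and 0.35 and 0.65 for Irf7 with Irf8. For Irf1 with Irf7 it was -0.29 in young and 0.65 in old mice. The closest gene was the highest among 13610 genes and the closest member the highest among a few, so their r values cannot be compared. These values share libraries and depth.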

How the data were processed

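RNA-seq libraries of whole spinal cord from 22 mice were analysed. The authors aligned the reads with STAR, estimated gene abundance with RSEM on an Ensembl annotation of mm10, and deposited RSEM expected counts, not normalized between libraries, and log2 values of FPKM plus a pseudocount of 1. SAMtools 1.3 is named in the submitters' processing notes. Every column was used, by the group in its name.

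Expected counts were rounded to whole numbers. Each comparison was filtered with filterByExpr (minimum count 10, minimum total 15), scaled by TMM and tested in edgeR by quasi-likelihood, with p-values adjusted by Benjamini-Hochberg across every tested gene and a threshold of 0.05. CPM values are scaled by TMM library sizes, and log2 CPM used a prior count of 2. The difference between the changes was tested in one fit of all 22 libraries. P-values measure the spread between these mice. No pair of libraries of a group agreed within sampling noise (chi-square over degrees of freedom at least 2.36). Gene positions are from GENCODE M21. On simulated data, 98.5% of 200 genes changed by a log2 of 1.5 were recovered among 13647 genes in aging and 94% among 14386 in ALS. Of the calls, 4.37% and 4.08% were on unchanged genes. Smaller changes, such as those of Irf1, Irf2, Irf3 and Irf9, were not simulated.

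The members and gene lists were chosen with earlier results of these data known. All members are named, from each other list at most 4 genes with the smallest adjusted p, and for each member the 3 most similar genes. Fits used edgeR 4.0.16, DESeq2 1.42.0 and limma 3.58.1 in R 4.3.3, and tables and plots used pandas 2.3.3, scipy 1.17.1 and matplotlib 3.10.9 in Python 3.11.15. Alternatives were DESeq2, RLE factors, no filter, at least 10 counts in every library, one fit of all libraries, limma on log2(FPKM + 1), and each library left out.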

Additional observations from a re-analysis of the deposited data

Results flagged for a closer look

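Irf5 and Irf8 changed more in SOD1-G93A against control mice than in old against young mice, by 1.497 on the log2 scale for Irf5 and 1.496 for Irf8, with edgeR adjusted p of 0.000689 and 0.00161. Irf3 differed by 0.59 (adjusted p = 0.0113) and Irf2bp2 by 0.52 (adjusted p = 0.007), both more positive in SOD1-G93A mice. All 3 SOD1-G93A mice lay above all control mice for Irf5 and Irf8, and 2 of 3 did so for Irf3, where 25.7% of all genes tested had the 3 SOD1-G93A mice above the 3 control mice.

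Young library 4 stood apart from the other young mice for Irf9, at 7.76 CPM where the next lowest was 11.7 CPM, a gap of 0.584 of the group's range, which is past Dixon's critical value. It was the shallowest library, with 5078092 counts, of which 40 were on Irf9. Of 16 sets of values examined in this way, the 8 genes in young and in old mice, 1 stood out, and chance alone would mark about 5% of groups.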

How the results depend on the processing

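Over the alternatives, 286 of 308 refitted log2 changes of the members kept their direction and their side of the threshold. In old mice 5 members rose in every one of the 6 other settings and with any of the 16 mice left out (range 5 to 5). In SOD1-G93A mice 4 to 6 rose in the other settings and 4 to 7 with a mouse left out. Of the differences between the changes, 2 to 3 passed in the other settings and 3 to 5 with a mouse left out. The highest of these counts, 7 and 5, came without SOD1-G93A library 2, where calls over all genes rose too. Signs turned only near 0, for Irf2 in aging (from -0.11 to 0.0025 over the mice left out, the latter without young library 6) and for the difference of Irf1 (from -0.075 to 0.28, the former without SOD1-G93A library 3). Irf1 in ALS missed the threshold with limma on log2(FPKM + 1) (adjusted p = 0.0899), as did the difference of Irf5 (adjusted p = 0.058), and the cause was not tested. The difference of Irf3 was lost without control library 1 (adjusted p = 0.0558) or SOD1-G93A library 1 (adjusted p = 0.0567). Irf3 in ALS passed in one fit of all libraries (adjusted p = 0.0316), and Irf2 with at least 10 counts in every library (adjusted p = 0.0466).

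Of the 8 relations 1 passed on log2 CPM, 3 on log2(FPKM + 1) and, by Spearman's rho, 0 on log2 CPM and 1 on log2(FPKM + 1). On log2(FPKM + 1) these were Irf8 with microglia in old and young mice and Irf7 with type I interferon effectors in old mice (r = 0.91, adjusted p = 0.0481), and the last fell to an r of 0.20 without the 2 farthest mice. The r of Irf9 in young mice was 0.051 on log2(FPKM + 1), and on log2 CPM its rho was 0.38, both of the opposite sign to r on log2 CPM. By CPM per kilobase 21 of 32 places of the order were kept. With DESeq2 the pathway lists held 68 genes higher in old and 93 in SOD1-G93A mice. Among all genes given an adjusted p by DESeq2, 1968 of 16128 were higher in old and 2560 of 16065 in SOD1-G93A mice. Over all genes, calls in edgeR without old library 6 were 2179 higher and 2200 lower. No paired analysis was possible because the columns carry no replicate numbers. Irf4 was at most 10 counts in a library, which limits what can be said of it.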
